A study of Homo sapiens with 8 samples.

Results

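The response to albumin-coupled estradiol (E2-BSA) was compared with and without the antagonist G15 in SKBR3 cells, as a 2 by 2 design of 4 arrays taken from a series of 8. The 4 arrays were chosen by their titles: untreated cells, cells given E2-BSA (1e-06 M), cells given G15 (1e-05 M), and cells given both agents at those doses. SKBR3 is a human breast cancer line with amplified HER2 (ERBB2). In all 8 conditions treatment lasted 3 h and followed a change of the growth medium, 4 h earlier, to one with 10% charcoal-stripped serum, a serum from which most steroids have been removed. The 4 arrays outside the design were BSA at 1e-06 M (the carrier of E2-BSA), 0.1% ethanol (the vehicle of estradiol), free estradiol at 1e-06 M, and E2-BSA at 1e-06 M with ICI at 1e-05 M. They are used as values beside the design. Each condition was measured once, so no value below has a replicate error and no comparison has a p-value, except where a limma fit is named. No array of G15 with the BSA carrier, and none of ICI alone, was analysed here.

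Estradiol acts through nuclear receptors and through GPER, a G protein-coupled receptor of cell membranes. Coupling to albumin is meant to keep the hormone outside the cell, and G15 is an antagonist of GPER. SKBR3 is known as a line with GPER and without nuclear estrogen receptor alpha. If hormone and antagonist acted independently on a transcript, the E2-BSA difference on the log2 scale would be the same with and without G15. The departure from additivity was therefore taken as (E2-BSA plus G15 minus G15) minus (E2-BSA minus untreated), for each of 19775 genes as the mean of its probe sets with 1 gene symbol. A negative departure means that the array with both agents lay below the sum of the separate differences. The same number can come from any of the 4 arrays, so the array that holds it was sought as well. Deposited values were centred for each probe set and carry no absolute level. Whether a gene is expressed in these cells, and the identity of the cells from their markers, could therefore not be checked from them.

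Additivity was departed from by 2-fold or more (1 on the log2 scale) in 13 genes, 0.0657% of those measured. The departure was negative in 10 genes (0.0506%) and positive in 3 (0.0152%). The negative genes, from the largest, were ID1, RAC3, KANK4, TNNC1, HOXC13, PFKFB3, MGAM, MBL2, RBM34 and IGFL1, and the positive ones BHMT, KRT5 and FHAD1-AS1. The range over all genes was -1.73 to 1.15, with a median of -0.024 and an SD over genes of 0.218. The E2-BSA difference itself had an SD over genes of 0.166 without G15 and 0.166 with it. It reached 2-fold in 0 genes (0%) without G15 and in 3 genes (0.0152%) with it. BSA minus untreated, which involves neither hormone nor antagonist, also had an SD of 0.166, and 6 genes (0.0303%) were at 2-fold there. In 11 of the 13 genes the departure exceeded the span of that gene's values with no agent, with BSA and with ethanol. The exceptions were PFKFB3 and IGFL1, with spans of 1.38 and 2.34. These genes were selected for a large departure, and the untreated array enters both the departure and the span. The count of 11 is therefore no separate support. A departure adds the spread of 4 arrays where a difference adds that of a pair.

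**Figure D1:**
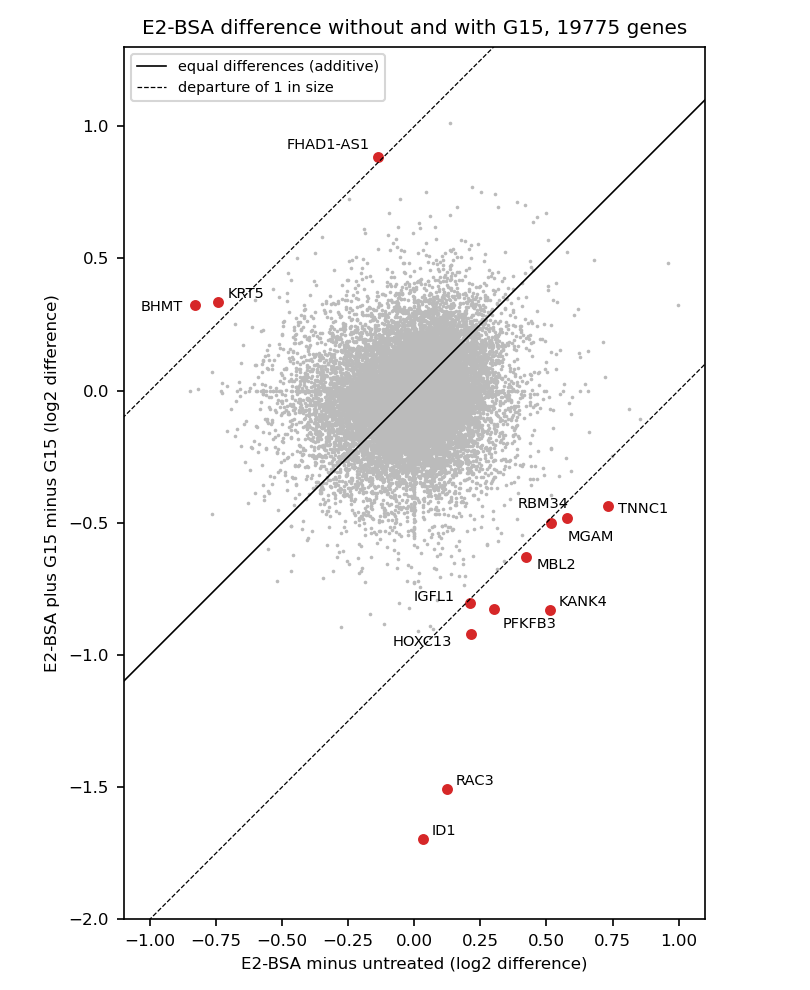
Each point is 1 of 19775 genes, with the E2-BSA difference without G15 on the x axis and with G15 on the y axis (log2 differences between single arrays). The solid line marks equal differences, the dashed lines a departure of 1 in size, and red points are the 13 genes at or past it; ID1 and RAC3 lie near 0 on the x axis and at -1.70 and -1.51 on the y axis.

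Across genes the E2-BSA difference without G15 and that with G15, which share no array, were only weakly related (Pearson r = 0.139, Spearman rho = 0.159 over 19775 genes, which are not independent replicates). The 13 genes are all among the 9252 that have 1 probe set. In those genes the SD of the departure was 0.263, against 0.188 in the 5015 genes with 2 probe sets and 0.150 in the 5508 with 3 or more, where 0 genes reached 2-fold. Just inside the threshold were RBM34 at -1.02 and IGFL1 at -1.01. SHISA2 and LHX1, each at -0.99, were just outside it.

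Among the 19775 genes ID1 had the largest departure. It encodes an inhibitor of DNA binding that pairs with basic helix-loop-helix factors and keeps them off DNA, and it is a direct target of bone morphogenetic protein (BMP) signalling through SMAD proteins. The ID1 value was 0.01 on the untreated array, 0.04 with E2-BSA, 0.00 with G15 and -1.70 with E2-BSA plus G15. The other 3 arrays of the design spanned 0.04, and the departure was -1.73, or 3.32-fold. For ID1 the departure thus lay in the array with both agents. Outside the design ID1 stood at 0.17 with BSA and -0.34 with ethanol, and at -2.02 with free estradiol and -1.93 with E2-BSA plus ICI. ID1 was low on those 2 arrays as well as with E2-BSA plus G15, and neither E2-BSA nor G15 alone was among the low arrays.

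The departure was shared by the other members of the ID family, whose proximal promoters are shown here because these genes were low together on the array with both agents. They are from RefSeq (GRCh38.p14), run from 250 bases before to 50 after the gene start, and are written 5′ to 3′ on the gene's strand. Capitals mark matches, on either strand, to the short motifs named after the sequences.
ID1, chr20:31605039-31605338, plus strand: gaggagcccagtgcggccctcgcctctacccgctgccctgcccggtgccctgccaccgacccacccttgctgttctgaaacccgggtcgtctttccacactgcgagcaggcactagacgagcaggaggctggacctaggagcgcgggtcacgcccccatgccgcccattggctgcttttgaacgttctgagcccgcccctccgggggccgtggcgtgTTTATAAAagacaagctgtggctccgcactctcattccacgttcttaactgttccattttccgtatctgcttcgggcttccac
ID2, chr2:8681806-8682105, plus strand: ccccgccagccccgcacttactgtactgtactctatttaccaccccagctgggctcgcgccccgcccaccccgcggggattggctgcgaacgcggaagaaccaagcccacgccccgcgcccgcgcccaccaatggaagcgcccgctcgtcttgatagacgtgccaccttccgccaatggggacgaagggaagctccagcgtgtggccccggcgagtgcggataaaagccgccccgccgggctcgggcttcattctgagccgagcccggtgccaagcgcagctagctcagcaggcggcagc
ID3, chr1:23559452-23559751, minus strand: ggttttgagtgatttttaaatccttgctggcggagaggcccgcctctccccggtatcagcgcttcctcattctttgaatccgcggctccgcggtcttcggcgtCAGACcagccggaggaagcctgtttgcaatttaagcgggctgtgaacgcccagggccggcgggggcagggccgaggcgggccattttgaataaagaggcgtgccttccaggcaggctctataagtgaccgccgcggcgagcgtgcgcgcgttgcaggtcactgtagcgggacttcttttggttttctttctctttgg
ID4, chr6:19837120-19837419, plus strand: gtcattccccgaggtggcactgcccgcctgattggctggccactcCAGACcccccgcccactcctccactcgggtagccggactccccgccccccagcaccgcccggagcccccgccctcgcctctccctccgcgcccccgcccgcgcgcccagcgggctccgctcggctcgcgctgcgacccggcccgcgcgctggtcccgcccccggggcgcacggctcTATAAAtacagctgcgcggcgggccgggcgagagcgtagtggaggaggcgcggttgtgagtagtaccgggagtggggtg
The TATA box core, TATAAA, was found in ID1, as overlapping matches on the 2 strands, and in ID4, and occurs in 11.5% of the 35116 promoters of this length in the table. A short sequence contacted by SMAD proteins, GTCTG, was found once each in ID3 and ID4, and in 45.3% of all promoters. A GC-rich sequence associated with BMP-responsive SMADs, GGCGCC, was found in 0 of the 4 windows and in 19.2% of all promoters. The E-box bound by basic helix-loop-helix factors, CANNTG, is not capitalised; it was found once each in ID2 and ID4, where it overlaps no other match, and in 68.7% of all promoters. GC content was 62.7% for ID1, 69% for ID2, 59.7% for ID3 and 76.3% for ID4, against a median of 58.7% over all promoters. These matches describe the windows only.

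ID4 stood at 0.13 on the untreated array, 0.14 with E2-BSA, 0.11 with G15 and -0.80 with both agents, a departure of -0.93. All 5 ID4 probe sets had a negative departure, from -1.49 to -0.063. ID3 stood at 0.00, 0.09, 0.08 and -0.71 in the same order, with a departure of -0.88. ID2 stood at 0.22, 0.003, 0.05 and -0.58, with a departure of -0.42, and its 2 probe sets gave -0.55 and -0.29. A further probe set, annotated to both ID2 and ID2B and so left out of this mean, departed by -1.23. In each of the 4 ID genes the array with both agents was the lowest of the 4, and the other 3 spanned at most 0.21. Estradiol and E2-BSA plus ICI were as low or lower for ID2, at -1.24 and -1.22. For ID4 these arrays stood at -0.70 and -0.86, and for ID3 at -0.72 and -0.56.

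Most genes of a list of BMP targets were lower on the array with both agents. As differences from BSA, the list medians were -0.48 with both agents, -0.37 with E2-BSA plus ICI and -0.32 with free estradiol. Over all genes they were -0.005, 0.007 and 0.00. Low values of these BMP targets were thus not particular to E2-BSA plus G15. The list includes ID1, ID2, ID3 and ID4, already described, which add to each count below except that ID2 was not at 1.5-fold. Of 15 measured genes of this list, 14 had a negative departure, with a median of -0.48, beside 55.1% of all genes and a median of -0.024. A departure of -0.585 or lower (1.5-fold) was held by 7 of 15, where 0.936% of all genes had one. The array with both agents was the lowest of the 4 in 11 of the 15 genes, against 24.4% of all genes. The list and the ID genes were chosen with earlier results of these data known, so that these counts are no independent evidence. SMAD7, which inhibits receptor signalling in a feedback loop, stood at -0.01 untreated, 0.22 with E2-BSA, 0.00 with G15 and -0.53 with both, a departure of -0.75. The related inhibitor SMAD6 departed by -0.36, and its 4 probe sets ranged from -0.80 to -0.030. The decoy receptor gene BAMBI departed by -0.48 and the Notch and BMP target HEY1 by -0.64. The homeobox gene DLX3 stood at 0.00, 0.15, 0.28 and -0.37, with a departure of -0.80. DLX2 departed by -0.66, from probe sets at -1.37 and 0.053 that disagree. With the mean of untreated, ethanol and BSA as reference DLX2 departed by -0.41.

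**Figure D2:**
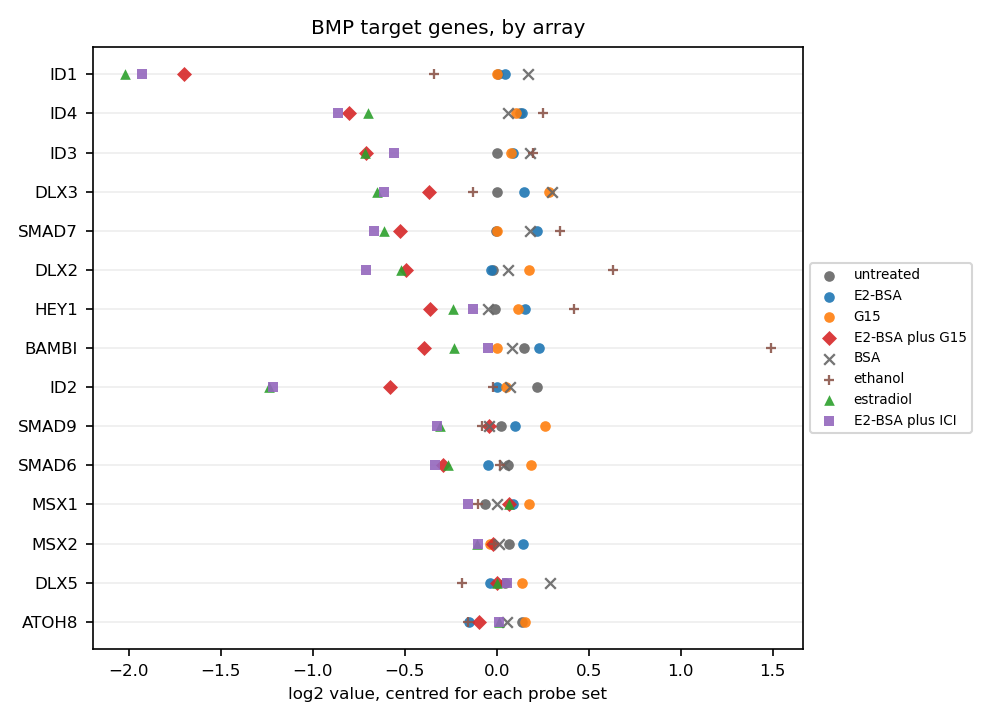
Values of the 15 BMP target genes (rows, ordered by departure) on the 8 arrays; the x axis is the log2 value centred for each probe set, and each symbol is 1 array. The red diamond (E2-BSA plus G15) lies to the left of untreated, E2-BSA and G15 for ID1, ID4, ID3, DLX3, SMAD7, DLX2, HEY1, BAMBI, ID2, SMAD9 and SMAD6.

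The remaining members of the list follow. SMAD9 departed by -0.38, MSX1 by -0.26, MSX2 by -0.060, DLX5 by -0.053 and ATOH8 by 0.035. Upstream components of the pathway did not depart in this way: of 13 measured BMP ligands, receptors and SMADs, 8 were below 0, the median was -0.006 and the range -0.26 (BMP2) to 0.26 (BMP6). In 0 of those 13 was the array with both agents the lowest of the 4.

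RAC3 was the other gene with a departure beyond 1.5 in size. It encodes a small GTPase of the RAC family, which acts on the actin cytoskeleton. RAC3 stood at 0.31 untreated, 0.44 with E2-BSA, -0.03 with G15 and -1.54 with both agents, a departure of -1.63 (3.10-fold). Outside the design it stood at -0.02 with BSA, 0.34 with ethanol and 0.00 with estradiol, and at -1.65 with E2-BSA plus ICI. RAC3 was thus low with E2-BSA plus G15 and with E2-BSA plus ICI, and, unlike ID1, was not low with free estradiol.

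HOXC13 and PFKFB3 completed the genes at 2-fold whose departure lay in the array with both agents. HOXC13, a homeobox gene known for hair and nail formation, stood at -0.07 untreated, 0.15 with E2-BSA, 0.00 with G15 and -0.92 with both, a departure of -1.14. It was also low with estradiol (-0.70) and with E2-BSA plus ICI (-0.67). PFKFB3, which makes the main allosteric activator of glycolysis, stood at -0.10, 0.21, 0.07 and -0.76, a departure of -1.13. It was at -0.55 with estradiol, -0.52 with E2-BSA plus ICI and 1.28 with ethanol. The other measured hypoxia and glycolysis genes lay between -0.32 (ADM) and 0.20 (BNIP3), and the median of the 18 was 0.021.

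**Figure D3:**
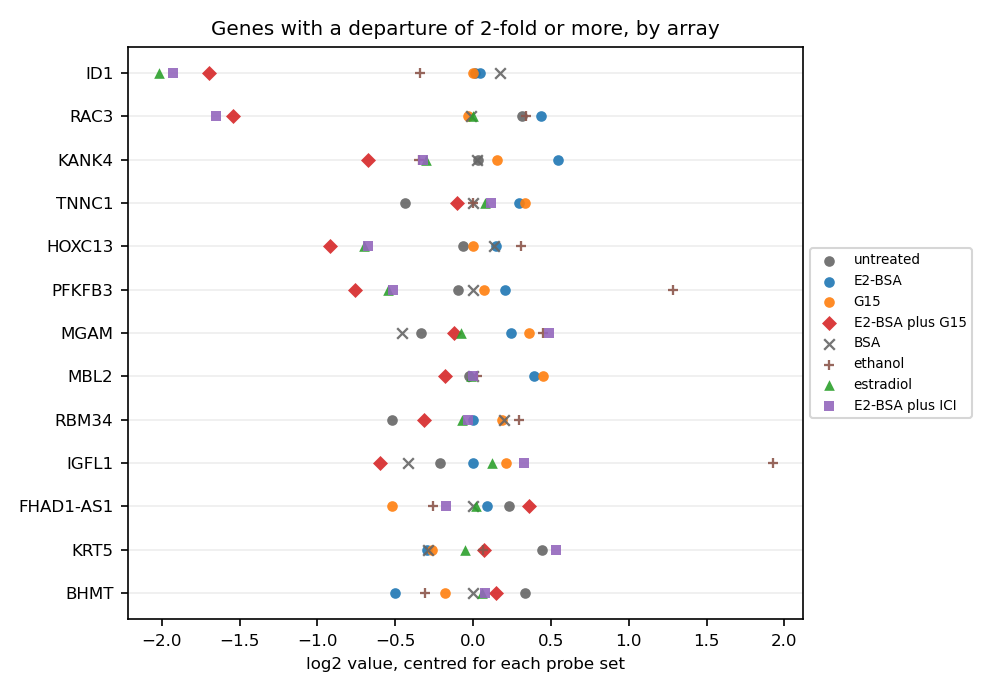
Values of the 13 genes with a departure of 2-fold or more (rows, ordered by departure) on the 8 arrays; the x axis is the log2 value centred for each probe set, and each symbol is 1 array. For ID1, RAC3, HOXC13 and PFKFB3 the red diamond (E2-BSA plus G15) stands apart from untreated, E2-BSA and G15, while in the lower rows the arrays of the design are spread.

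In the other genes at 2-fold the departure was spread over several arrays. An array was taken to hold it where it was farthest from the median of the other 3 and those 3 spanned at most 0.5 of that distance. By this rule 4 of the 13 genes fell to E2-BSA plus G15, 1 to G15 and 8 to several arrays. KANK4, a cytoskeletal adaptor gene, stood at 0.03 untreated, 0.54 with E2-BSA, 0.15 with G15 and -0.68 with both. It was thus the highest of the 8 arrays with E2-BSA and the lowest with both agents, and departed by -1.35. MBL2, a liver lectin gene, stood at -0.03, 0.39, 0.45 and -0.18, and the 4 arrays outside the design lay between -0.01 and 0.02. The antisense transcript FHAD1-AS1 stood at 0.23, 0.09, -0.52 and 0.36, so that its departure of 1.02 lay in the low G15 array.

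For several of these genes the untreated array weighed heavily. TNNC1, a muscle troponin gene, stood at -0.44 untreated, 0.29 with E2-BSA, 0.34 with G15 and -0.10 with both. The untreated array was the lowest of all 8, and with the BSA array in its place the departure was -0.73 instead of -1.17. RBM34, an RNA-binding protein gene, stood at -0.52, 0.00, 0.18 and -0.32, and BSA in place of untreated gave -0.30 instead of -1.02. The basal keratin gene KRT5 stood at 0.45, -0.30, -0.26 and 0.07, and its departure of 1.08 was 0.35 with BSA. BHMT, a liver enzyme of methionine metabolism, stood at 0.33, -0.50, -0.18 and 0.14, with a departure of 1.15 that was 0.82 with BSA. MGAM, an intestinal maltase gene, stood at -0.34, 0.24, 0.36 and -0.12, and departed by -1.06, or by -1.18 with BSA. IGFL1, a growth factor-like gene, stood at -0.21, 0.00, 0.21 and -0.59, and at 1.93 with ethanol. With the mean of untreated, ethanol and BSA as reference its departure was -0.37.

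The count and the genes in it depended on the array taken as the reference without hormone. With BSA in place of untreated, 28 genes departed by 2-fold, 7 of them among the 13. With the mean of untreated and BSA the count was 12, of which 8 were shared, and with the mean of untreated, ethanol and BSA it was 14, of which 4 were shared. ID1, RAC3, KANK4 and MBL2 were at 2-fold with each of these references. Over 9 alternative settings of the values, RAC3 lay between -1.96 and -1.33 and KANK4 between -1.63 and -1.35. ID1 and MBL2 had a value under 8 of them, between -1.79 and -1.57 and between -1.20 and -1.02. Limma fits that took untreated, ethanol and BSA, or untreated and BSA, as samples of 1 group gave 0 genes with an adjusted p under 0.05. The smallest adjusted p was 1 and 0.799, and 344 and 939 of 19775 genes had an unadjusted p under 0.05. These fits take the spread from arrays of different vehicles and not from repeats of a condition.

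At a lower threshold of 1.5-fold, 359 genes (1.82%) departed from additivity. Of these, 185 genes had a negative departure (0.936%) and 174 a positive one (0.88%). The negative departures lay most often in several arrays (121 genes), then in E2-BSA plus G15 (33), G15 (19), E2-BSA (7) and untreated (5). The positive ones lay in several arrays in 114 genes, in E2-BSA in 39, in G15 in 8, in untreated in 7 and in E2-BSA plus G15 in 6. A low array with both agents gives a negative departure and a low E2-BSA array a positive one. These were the most frequent cases where 1 array held it.

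**Figure D4:**
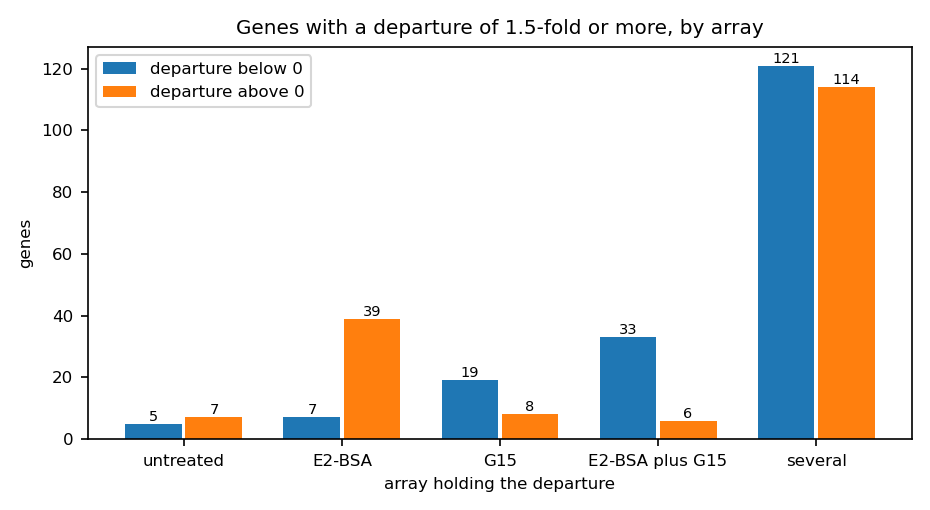
Number of genes (y axis) with a departure of 1.5-fold or more, by the array that holds it (x axis), for negative (blue) and positive (orange) departures. Most genes fall to several arrays (121 and 114); E2-BSA plus G15 holds 33 negative and 6 positive departures, and E2-BSA 7 negative and 39 positive.

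The 33 genes that were low on the array with both agents included ID1, ID3, ID4, SMAD7, HEY1, DLX1 and DLX2. Others are named here after their values were seen. CDKN1A, the p21 cell-cycle inhibitor, stood at -0.06 untreated, 0.00 with E2-BSA, 0.25 with G15 and -0.64 with both. Heme oxygenase HMOX1 stood at 0.01, 0.28, 0.00 and -0.58. Both were high with ethanol, at 1.26 and 2.20. CDKN1A was also low with estradiol (-0.71) and with E2-BSA plus ICI (-0.51), where HMOX1 stood at -0.21 and -0.48. ISOC2 stood at 0.00, 0.19, 0.06 and -0.68, and like RAC3 was low with E2-BSA plus ICI (-0.63) and near 0 with estradiol (-0.02). NPM3, a nucleolar protein gene, stood at 0.00, 0.13, -0.11 and -0.62, with -0.48 for ICI and 0.08 for estradiol.

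Beside BSA, which did not enter the departure, 11 of the 33 genes were lower by 1.5-fold or more with E2-BSA plus ICI, where 0.319% of all genes were. Their median difference from BSA was -0.41. With free estradiol 7 of the 33 were lower by 1.5-fold (0.288% of all genes) and their median was -0.19, and with ethanol 0 of the 33 were (1.29% of all genes) and the median was 0.19. Over all genes these medians were 0.007, 0.00 and -0.032. The 33 include ID1, ID3, ID4, RAC3 and HOXC13, already described as low with E2-BSA plus ICI. Most of the 33 have 1 probe set, where departures spread more widely. The share over all genes is therefore not one of like genes.

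The 39 positive departures that lay in the E2-BSA array included, named after their values were seen, the lymphocyte genes CD2 and ICOS and the antigen-presenting molecule CD1C. The same group was mixed and also held KRTAP7-1, CST8, MEP1A and TMEM114. CD2 stood at 0.27 untreated, -0.58 with E2-BSA, 0.00 with G15 and 0.00 with both agents. ICOS stood at 0.09, -0.49, -0.02 and 0.21, and CD1C at 0.02, -0.63, 0.00 and 0.11. With ethanol ICOS stood at -0.31, CD1C at -0.52 and CD2 at 0.00, so low values of ICOS and CD1C were not particular to E2-BSA. Of the 5 measured leukocyte markers of a separate list, 2 were below 0, PTPRC at -0.14 and CD14 at -0.055. The median departure of that list was 0.13. The G15 array held 19 negative departures by a high value, with SPMAP2 at 0.82 there and between -0.17 and 0.00 on the other 3 arrays of the design.

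Targets of YAP, a co-activator that responds to cell shape and contact, also had members past 1.5-fold. Of 21 measured genes 17 were below 0, beside 55.1% of all genes, and 3 were at -0.585 or lower, beside 0.936%. The median was -0.12, against -0.024 over all genes. This list was also chosen with earlier results of these data known, so its counts are no independent evidence. The matrix protein gene CCN2, also a known GPER-linked gene, stood at 0.08 untreated, 0.41 with E2-BSA, -0.06 with G15 and -0.60 with both, a departure of -0.87. FJX1 stood at 0.00, 0.49, -0.05 and -0.34, with a departure of -0.78. IGFBP3, a binding protein of insulin-like growth factors, stood at 0.13, 0.23, -0.09 and -0.69, and its departure of -0.70 lay in the array with both agents. In CCN2 and FJX1 the array with E2-BSA alone was the highest of the 4, so that the departure was spread over several arrays. CCN1, a relative of CCN2, departed by only -0.17. Ethanol was far above these values for CCN2, at 1.68. With the mean of untreated, ethanol and BSA as reference the departure of CCN2 was -0.42.

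Homeobox and SOX genes were partly the same genes as the BMP targets. Their list was likewise chosen with earlier results of these data known, so its counts are no independent evidence. Of 16 measured, 15 were below 0, beside 55.1% of all genes, and the median was -0.19, beside -0.024. At -0.585 or lower, where 0.936% of all genes were, stood 5 of them: HOXC13, SOX9, DLX3, DLX2 and DLX1. SOX9, a transcription factor of progenitor cells, stood at -0.15 untreated, 0.44 with E2-BSA, -0.31 with G15 and -0.61 with both. Its departure was -0.90, its 2 probe sets gave -0.98 and -0.82, and within the design E2-BSA stood farthest from the other arrays. With ethanol SOX9 stood at 1.11. With the mean of untreated, ethanol and BSA as reference its departure was -0.39. Other HOXC genes were nearer to additivity, HOXC9 at -0.51, HOXC10 at -0.34, HOXC6 at -0.11, HOXC11 at -0.061 and HOXC4 at -0.041.

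**Figure D5:**
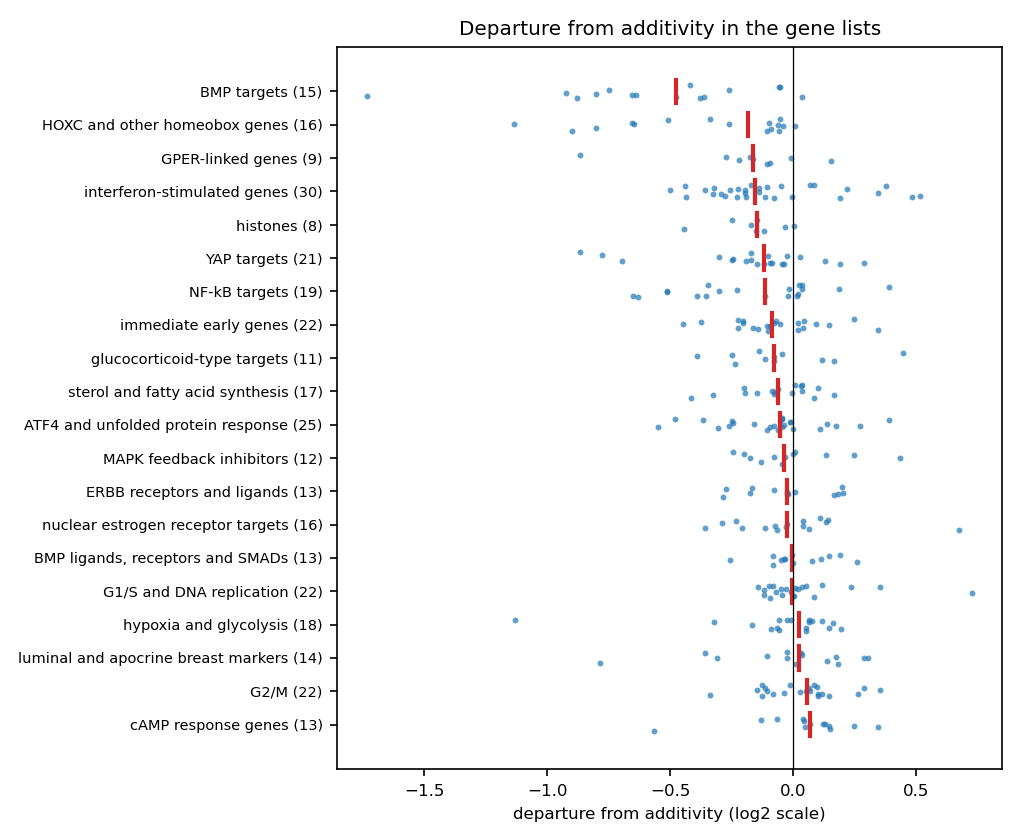
Departure from additivity (x axis, log2 scale) of each measured member of 20 gene lists (rows, with the number of members; some lists share members); red bars are list medians and the vertical offset of points is only for legibility. The BMP targets have the lowest median, -0.48, and ID1, HOXC13 and PFKFB3 are the 3 genes below -1.

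Most other pathways had medians closer to 0, and their counts below 0 stand beside 55.1% of all genes. These lists and those below were also chosen with earlier results of these data known. Immediate early genes, which transmit growth factor and GPER signals, had a median of -0.086 with 0 of 22 at 1.5-fold, and MAPK feedback inhibitors one of -0.039 with 0 of 12. The GPER-linked genes had a median of -0.17 with 8 of 9 below 0, and CCN2 alone was past 1.5-fold. Interferon-stimulated genes had a median of -0.16 with 22 of 30 below 0 and none at 1.5-fold, the range being -0.50 (IRF9) to 0.51 (IFI6). Of 19 NF-kB targets, CXCL3 (-0.65) and RELB (-0.63) were past 1.5-fold. Ethanol was the outlying array for them, at 4.28 and 1.60, and with the mean of untreated, ethanol and BSA as reference they departed by 0.87 and -0.076. For the targets of nuclear estrogen receptors the median was -0.027, and IGFBP4 at 0.67 was the only one of 16 past 1.5-fold.

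Cell-cycle and metabolic lists also had medians near 0. The median was -0.005 for G1/S genes and 0.058 for G2/M genes, -0.063 for sterol and fatty acid synthesis, -0.054 for the ATF4 and unfolded protein response and 0.069 for cAMP response genes. FAM111B, of the G1/S list, departed by 0.73, with probe sets at 1.06 and 0.39, and stood at 0.42 with G15, 0.93 with both agents and 0.93 with E2-BSA plus ICI. The 8 histone genes had a median of -0.15 with 7 below 0 (55.1% of all genes) and 0 at 1.5-fold. In 7 of the 8 the array with both agents was the lowest of the 4 (24.4% of all genes), and by the rule for placing a departure it held that of 1. Glucocorticoid-type targets had a median of -0.080 and ERBB receptors and ligands one of -0.027.

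The receptors themselves departed by at most 0.27 in size as means of their probe sets. GPER1 stood at 0.06 untreated, -0.08 with E2-BSA, 0.08 with G15 and -0.28 with both, a departure of -0.22 from probe sets at -0.79 and 0.35 that disagree. ESR1 departed by 0.11, ESR2 by -0.005 and ERBB2 by -0.027. EGFR departed by -0.27, but its 9 probe sets ran from -1.73 to 0.73. The probe set at -1.73 had its lowest value, -0.86, on the untreated array. Of the 14 luminal and apocrine breast markers only PIP (-0.79) was past 1.5-fold, with a list median of 0.022. The median was 0.024 for 6 fibroblast and -0.082 for 5 endothelial markers, with 0 at 1.5-fold.

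Averaging over probe sets kept further departures out of the count. Of the 41091 probe sets with 1 gene, 67 departed by 2-fold. Of these, 54 belong to 50 genes with several probe sets, whose mean did not reach 2-fold. Some, named after their values were seen, were high with both agents. A probe set of EEA1, an endosome tethering protein gene, stood at 0.07 untreated, -0.10 with E2-BSA, 0.49 with G15 and 1.76 with both. A pair of probe sets of the splicing factor gene SF3B1 stood at 1.14 and 1.14 with both agents and at 1.26 and 1.25 with E2-BSA plus ICI. The gene means of the departure were 0.78 for EEA1 and 0.52 for SF3B1.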

How the data were processed

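Total RNA of SKBR3 cells was labelled with biotin and hybridized to Affymetrix HG-U133 Plus 2 arrays, per the labels' protocols. The deposited log2 values lie between -2.27 and 7.85 and have a median of 0.00 on each array. In each probe set at most 4 of 8 arrays lie above 0 and at most 4 below, and 94.8% of probe sets hold an exact 0. The values are therefore centred for each probe set. What the authors used to summarize and normalize them, and the log base, is stated nowhere in the labels and so not given in the sources used here. They were read as log2, and folds depend on this. Quartiles differed between arrays by 0.0959 and 0.0645, and values were used as deposited. No filter on low values was possible, since levels are removed. With single arrays, their number limits the precision.

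Of 54675 probe sets, 62 controls were left out, 41091 carried 1 gene in the platform annotation, 1801 several and 11721 none. Symbols were updated by gene identifier through RefSeq for 41037. A gene is the mean of its probe sets, for 19775 genes. Arrays were grouped by title. The departure was computed with Python 3.11.15, pandas 2.3.3 and numpy 2.4.6, and was tested on simulated data, as was the limma 3.58.1 fit (R 4.3.3). Genes were called at 1 in size, with 0.585 as a lower threshold. Named genes were up to 15 each way at 1, up to 4 for each list at 0.585, the receptors, and the ID, SMAD6, SMAD7, CCN1 and CCN2 genes; list members and other genes outside this rule were picked as examples with their values known. The members and lists were chosen with earlier results of these data known. Of 35 genes so named, 27 had a promoter in the RefSeq table. One gene list is not reported here. Alternatives were other references, array scalings, probe set choices, thresholds, ways to place the departure, and limma.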

Additional observations from a re-analysis of the deposited data

Results flagged for a closer look

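The E2-BSA difference had opposite signs without and with G15 in all 13 genes at 2-fold. Genes were selected by the gap between these differences, which favours opposite signs, so the signs are no separate result. With 1 array a condition the change of sign was not tested. In 10 of the 13 genes each difference was larger in size than 0.166, the SD over genes of BSA minus untreated. The departures were -1.35 for KANK4, -1.17 for TNNC1, -1.14 for HOXC13, -1.13 for PFKFB3, -1.06 for MGAM, -1.05 for MBL2, -1.02 for RBM34, -1.01 for IGFL1, 1.08 for KRT5 and 1.15 for BHMT. ID1, RAC3 and FHAD1-AS1 are not among them, because E2-BSA alone differed from untreated by less than that SD.

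Departures of 2-fold also occurred in probe sets that name no gene or several genes here and so entered no comparison. Their share was no larger than among the 41091 probe sets in the gene means, of which 67 departed by 2-fold. Of the 13522 probe sets that name no gene or several, 15 departed by 2-fold, 10 below and 5 above 0. Each did so by more than its own range over untreated, BSA and ethanol. They were selected for size, so this is no separate support. The lowest departures, -1.98 and -1.81, were in probe sets with no gene and were larger in size than that of ID1. These probe sets stood at -2.27 and -1.80 with both agents and at -2.02 and -1.90 with E2-BSA plus ICI. With estradiol they stood at 0.04 and 0.00.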

How the results depend on the processing

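The count of 13 genes (3 higher, 10 lower) was 28 (12 and 16) with BSA as reference, 52 (27 and 25) after quantile normalization, 57 (25 and 32) with the probe set of largest SD, 23 (7 and 16) without probe sets with tied arrays, 359 (174 and 185) at 1.5-fold, and 0 (0 and 0) by each limma fit at an adjusted p under 0.05. With the mean of untreated, ethanol and BSA it was 14, as 9 higher and 5 lower. Centring of arrays and the median of probe sets left all 13. Of the 13 genes, 12 had probe sets without ties and 12 of these stayed at 2-fold. Probe sets other than _x_at and _s_at were present for 10, of which 10 stayed, in a count of 17. ID1, HOXC13 and PFKFB3 had only an _s_at probe set, so the latter setting did not cover them.

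Set against the BSA array, 4 departures still lay in E2-BSA plus G15, with 1 in untreated and 0 in G15. Against the median of the 4 outside arrays 1 (RAC3) lay in E2-BSA plus G15 and 0 in G15. With a stricter limit on the span of the other arrays, 3 lay in E2-BSA plus G15 and 0 in G15. List medians that moved with the largest-SD probe set were -0.75 for BMP targets, 0.18 for BMP ligands and receptors, -0.33 for GPER-linked genes, -0.29 for NF-kB, -0.25 for glucocorticoid-type and -0.36 for homeobox genes. Leukocyte markers gave -0.079 with BSA. The other 89 list values moved by under 0.166, and no called gene changed sign. The cause was not tested. No paired analysis was possible because each condition has 1 array. A departure of a gene with low signal cannot be told from noise, since level and background are not in the values.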
